A study of Mus musculus with 16 samples.

Results

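The knockout effect shared by both oxygen levels was measured as the mean of 2 differences, MCT4-KO minus control at 20% oxygen and MCT4-KO minus control at 2% oxygen, so all 16 RNA-seq libraries of the series entered it, 8 of MCT4-KO and 8 of control cells. The cells were a mouse acute myeloid leukemia line driven by MLL-AF9, grown with interleukin 3 (IL-3) and stem cell factor, in which Cas9 was switched on with 4-OHT in both genotypes. MCT4-KO cells at 20% oxygen and at 2% oxygen carried guide RNA against MCT4 (gene symbol Slc16a3), and control cells at 20% and at 2% carried guide RNA without a target, with 4 libraries in each of these 4 groups. The sources used here do not give the number of guides, their positions, or whether a genotype was 1 population or clone, so any other difference between the populations cannot be told apart from an effect of the knockout. Nothing in the labels tells if numbered replicates grew as separate cultures, and p-values therefore reflect library-to-library spread that may be technical.

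MCT4 is a plasma membrane carrier that moves lactate and a proton out of the cell, and it is typical of cells with high glycolytic flux. Its gene is a textbook target of the hypoxia-inducible factors, which bind short sites around the core ACGTG or GCGTG and raise glycolytic and other genes when oxygen is low. MLL fusion proteins keep Hox genes of the A cluster and their partner Meis1 active, which holds the cells in a progenitor state short of granulocytes and monocytes.

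Levels are CPM, read counts relative to library size, scaled by the trimmed mean of M-values (TMM), and changes are log2 fold changes of MCT4-KO over control ± SE from edgeR's quasi-likelihood model (n = 4 libraries per group). A gene was called where its Benjamini-Hochberg adjusted p was under 0.05 over the 13774 genes tested, and "shared" is used for a gene called at both oxygen levels in the same direction. Totals ran from 21192179 to 28871459 estimated counts per library. All 12 markers listed for the identity of these cells, from Ptprc and Spi1 to Kit and Mpo, were expressed and tested. Of the other cell types the culture could hold, 11 of 25 erythroid and megakaryocyte, 3 of 24 lymphoid, 5 of 16 mast cell and 4 of 16 stromal markers were tested, and Cd3e, Mcpt4, Tpsab1, Col1a2 and Cdh5 were at 0 in all libraries. Summed over each list, mast cell markers still reached 253 to 288 CPM and stromal markers 200 to 296 CPM, where 4 mast cell and 3 stromal genes had a mean of at least 1 CPM. One control library at 2% oxygen, replicate 4, stood apart with a median absolute log2 difference of 0.0935 from the other 3 libraries of its group, against 0.0329 to 0.0694 for the other libraries.

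Slc16a3, on chromosome 11 (120948480 to 120960868, plus strand, GRCm38), checked the labels. It had 70.4, 72.4, 82.1 and 94.7 CPM in MCT4-KO and 235, 199, 184 and 222 CPM in control libraries at 20% oxygen. At 2% oxygen the values were 370.3, 369, 358 and 363 CPM in MCT4-KO and 789, 844, 809.7 and 804 CPM in control libraries. At each oxygen level all MCT4-KO libraries were below all controls. The mean effect was -1.27 ± 0.052 (edgeR adjusted p = 2.36e-12), made of -1.39 ± 0.076 at 20% and -1.15 ± 0.072 at 2% oxygen, and the difference between these was not called (edgeR adjusted p = 0.104). Edited transcripts count as intact ones do, and protein was not measured.

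Slc16a3 and several genes below belong to the hypoxia response, and a few picked promoters from the RefSeq promoter table (GRCm38.p6) are shown as examples. Promoters of the other such genes are not shown. Each runs 5′ to 3′ from 250 bases before to 50 after the start of transcription, and capitals mark ACGTG, or CACGT where the motif lies on the other strand. They are Slc16a3 (chr11:120948817-120949116, plus strand), Pgk1, a glycolytic kinase (chrX:106186850-106187149, plus strand) and Ankrd37, an ankyrin repeat gene of the hypoxia response (chr8:45999801-46000100, minus strand).
Slc16a3: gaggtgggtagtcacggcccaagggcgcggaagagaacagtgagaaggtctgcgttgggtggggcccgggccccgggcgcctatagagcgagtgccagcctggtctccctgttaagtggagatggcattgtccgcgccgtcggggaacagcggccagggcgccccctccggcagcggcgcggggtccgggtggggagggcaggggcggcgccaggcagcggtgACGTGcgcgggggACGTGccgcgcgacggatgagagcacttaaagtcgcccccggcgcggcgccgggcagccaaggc
Pgk1: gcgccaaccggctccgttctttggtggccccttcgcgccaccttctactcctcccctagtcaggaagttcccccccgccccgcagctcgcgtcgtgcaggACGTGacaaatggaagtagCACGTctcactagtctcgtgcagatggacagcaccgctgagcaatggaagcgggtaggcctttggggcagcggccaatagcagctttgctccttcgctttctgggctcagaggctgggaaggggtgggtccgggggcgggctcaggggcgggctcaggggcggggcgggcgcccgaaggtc
Ankrd37: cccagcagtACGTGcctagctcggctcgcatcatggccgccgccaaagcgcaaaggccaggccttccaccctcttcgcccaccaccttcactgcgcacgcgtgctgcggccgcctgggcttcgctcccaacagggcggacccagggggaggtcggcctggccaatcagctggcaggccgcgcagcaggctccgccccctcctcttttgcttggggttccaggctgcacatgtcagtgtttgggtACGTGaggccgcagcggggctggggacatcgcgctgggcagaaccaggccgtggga
Each holds 2 matches. ACGTG, on either strand, was present in 27.3% of 216 promoters of genes shared and higher, in 29.2% of 226 of genes shared and lower, and in 29.4% of 9913 of all genes tested that have a promoter in the table. GCGTG, on either strand, was present in 57.4%, 63.3% and 55.7% of the same sets. A match describes these letters and not binding.

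In the mean effect 2313 genes were higher (16.8% of those tested) and 2129 lower in MCT4-KO (15.5%). Far fewer were shared. In the comparison at 20% oxygen 1344 genes were called (9.76%; 4.96% higher and 4.8% lower) and in that at 2% 5295 (38.4%; 19.4% higher and 19.1% lower). Called in the mean effect with the same sign at both levels were 1842 higher (13.4%) and 1796 lower genes (13%). Called at both were 747, of which 280 were higher at both levels (2.03% of those tested), 296 lower at both (2.15%) and 171 in opposite directions (1.24%). The 576 shared genes (4.18% of those tested) made up 42.9% of the genes called at 20% and 10.9% of those called at 2%. These counts moved with single libraries: without MCT4-KO replicate 2 at 20% oxygen 185 were shared and higher, 191 shared and lower and 111 opposite, and without MCT4-KO replicate 3 or control replicate 3 at 20% oxygen 96 and 110 were opposite. Without control replicate 4 at 2% oxygen, the library that stood apart, they were 297, 334 and 241. Scaling by library size alone put 65.8% of the shared genes on the higher side (406 higher, 211 lower), against 48.6% with TMM, and 65.9% of the genes called in the mean effect (3138 higher, 1624 lower), against 52.1% with TMM.

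Most shared effects were small. The median of the mean effect was 0.24 over the shared higher genes (0.23 at 20% and 0.25 at 2% oxygen) and -0.28 over the shared lower genes (-0.26 and -0.31), against -0.0018 over all genes tested. Sizes of at least 1.5-fold were reached by 45 of the higher and 42 of the lower genes, and at least 2-fold by 15 and 9. In 229 of the 280 and 222 of the 296, the genotypes were fully separated at either level, while over all genes tested 360 (2.61%) were above and 321 (2.33%) below without overlap at both levels. The test of oxygen dependence, which called 3155 of all genes (22.9%), called 85 of the 576 shared genes (14.8%), 64 with the larger effect at 2% and 21 with the larger at 20%. Across all 13774 genes the effects at the 2 oxygen levels, which come from separate libraries, had the same sign in 55.6% and correlated only weakly (Pearson 0.17, Spearman 0.15, across genes, which are not independent).

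**Figure D1:**
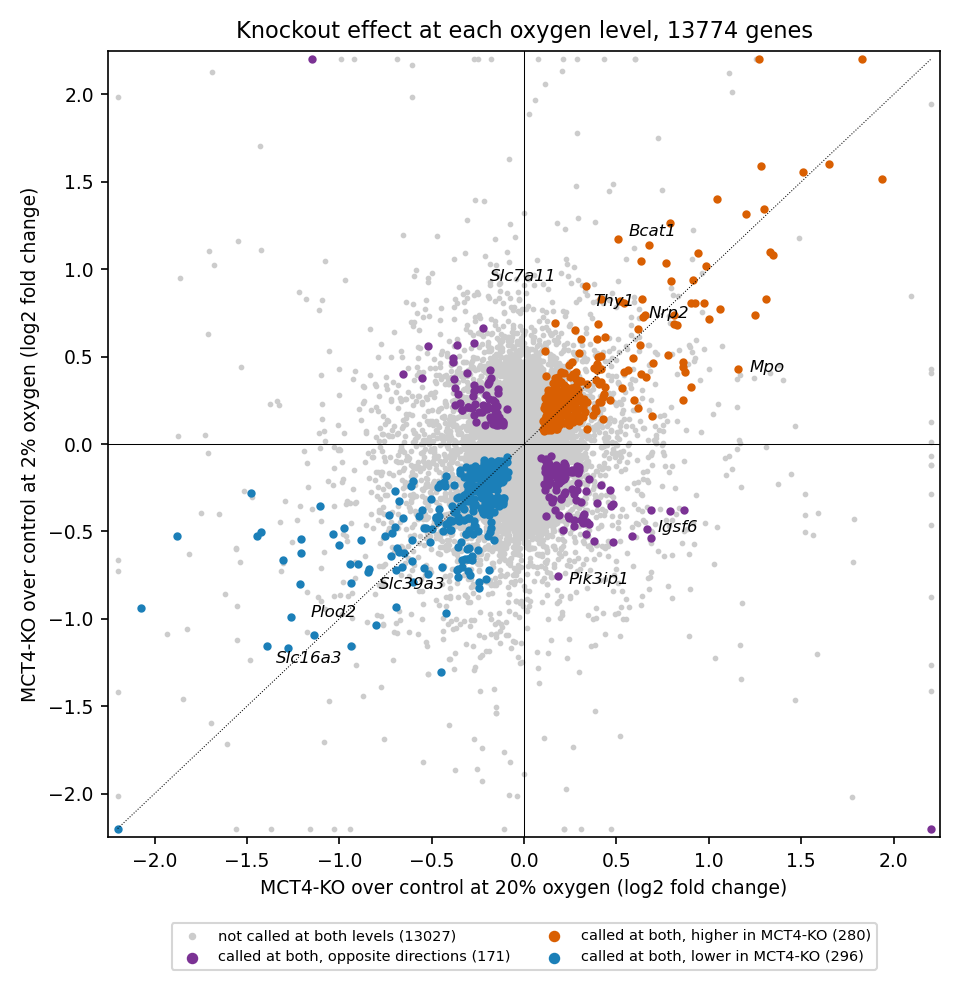
Log2 fold change of MCT4-KO over control at 20% oxygen (horizontal axis) and at 2% oxygen (vertical axis) for each gene tested, with values beyond the axes drawn at their edge and the dotted line marking equal effects. The 280 genes higher and 296 lower at both levels lie at the upper right and lower left, and the 171 called in opposite directions at the upper left and lower right.

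Among expressed genes (average log2 CPM of at least 3, no overlap between genotypes), the largest shared falls besides Slc16a3 were in genes of varied function. Plod2, which encodes a lysyl hydroxylase of collagen and is induced in hypoxia, had 2.22, 2.07, 2.43 and 1.98 CPM in MCT4-KO and 5.08, 4.30, 4.49 and 5.23 CPM in control libraries at 20% oxygen. At 2% it had 28.7, 29.04, 27.8 and 32.2 CPM in MCT4-KO and 59.9, 68.3, 61.1 and 61.6 CPM in control libraries. So the gene was far more abundant at 2% than at 20% oxygen in both genotypes, and MCT4-KO libraries lay below controls by a like factor at each level (-1.14 ± 0.11 and -1.09 ± 0.054, edgeR adjusted p = 1.57e-10 for the mean effect of -1.11 ± 0.061).

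Slc39a3, a zinc importer, had 16.9, 14.9, 17.2 and 15.9 CPM in MCT4-KO and 29.6, 31.2, 27.6 and 28.2 CPM in control libraries at 20% oxygen. The values at 2% were 16.7, 15.96, 16.6 and 17.1 CPM in MCT4-KO and 27.01, 27.1, 27.96 and 28.04 CPM in control libraries. Its level hardly depended on oxygen, and the genotypes stayed apart (mean effect -0.79 ± 0.036, edgeR adjusted p = 7.29e-12). Mcur1, a regulator of calcium uptake by mitochondria, behaved alike. It had 104, 97.4, 94.3 and 98.02 CPM in MCT4-KO and 158, 159.6, 168 and 163 CPM in control libraries at 20% oxygen, and 100.7, 103, 99.6 and 96.9 CPM in MCT4-KO and 151, 156, 154 and 162 CPM in control libraries at 2%. Its mean effect of -0.68 ± 0.025 had the smallest adjusted p of the named genes (edgeR adjusted p = 5.39e-13), and all 8 MCT4-KO libraries lay below all 8 controls.

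The serpin gene Serpinb9g, a member of a mouse family of close copies among which reads may have been divided wrongly, had 4.56, 4.55, 4.93 and 5.07 CPM in MCT4-KO and 8.25, 7.63, 7.02 and 7.28 CPM in control libraries at 20% oxygen. At 2% oxygen the gene had 12.6, 10.9, 12.4 and 12.4 CPM in MCT4-KO and 18.4, 20.6, 20.6 and 19.3 CPM in control libraries (mean effect -0.68 ± 0.050). Smim14, a small membrane protein gene, had 153, 153, 158 and 158 CPM in MCT4-KO and 229.9, 232, 224 and 219 CPM in control libraries at 20% oxygen, and 320.2, 313, 307 and 305 CPM in MCT4-KO and 494, 485, 496 and 562 CPM in control libraries at 2% (-0.62 ± 0.028). In both genes the genotypes did not overlap at either level. Further shared falls were in Proser2 (-0.99 ± 0.088), the amyloid-precursor-like gene Aplp1 (-0.78 ± 0.076), the growth factor binding protein Fgfbp3 (-0.70 ± 0.031), Sbf2 (-0.59 ± 0.050), Pafah1b3, a subunit of a platelet-activating factor hydrolase (-0.54 ± 0.055), and the secretory granule protein Chga (-0.54 ± 0.071). Of these, Proser2 and Aplp1 were low at 20% oxygen, with at most 2.39 and 2.88 CPM in any library. Glod5 had -1.13 ± 0.17, with 0.348, 0.481, 0.515 and 0.485 CPM in MCT4-KO and 1.82, 0.729, 0.756 and 1.12 CPM in control libraries at 20% oxygen. Without control replicate 1 its effect there was -0.92 in place of -1.26 and was no longer called (edgeR adjusted p = 0.0767). Serpinb2 had -0.72 ± 0.10, and its call at 2% was lost when control replicate 2 or MCT4-KO replicate 3 of that level was left out (edgeR adjusted p = 0.0621 and 0.0705).

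The largest shared rises, within the same limits, included genes of amino acid supply, surface proteins and a granule enzyme. Bcat1, which transaminates branched-chain amino acids, had 33.9, 28.4, 31.2 and 27.97 CPM in MCT4-KO and 20.3, 21.4, 22.6 and 21.1 CPM in control libraries at 20% oxygen. In the libraries at 2% it had 7.90, 6.39, 7.53 and 7.52 CPM in MCT4-KO and 2.68, 3.50, 3.21 and 3.66 CPM in control libraries. MCT4-KO lay above control at both levels, and the effect was larger at 2% (1.17 ± 0.11) than at 20% (0.51 ± 0.065, edgeR adjusted p = 9.45e-04 for the difference).

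Slc7a11, the cystine importer that feeds glutathione synthesis, had 89.8, 86.3, 81.9 and 80.8 CPM in MCT4-KO and 65.1, 64.3, 67.2 and 71.4 CPM in control libraries at 20% oxygen. At 2% it had 15.5, 14.1, 14.1 and 13.6 CPM in MCT4-KO and 8.25, 9.37, 6.79 and 6.04 CPM in control libraries. Its effect too was larger at 2% (0.91 ± 0.095) than at 20% (0.34 ± 0.059, edgeR adjusted p = 0.00114 for the difference). Both genes stood several times lower at 2% than at 20% oxygen in either genotype.

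Thy1, a glycoprotein of the cell surface found on stem cells and T cells, had 44.8, 46.4, 51.5 and 49.9 CPM in MCT4-KO and 34.1, 28.7, 27.2 and 32.3 CPM in control libraries at 20% oxygen. The values at 2% were 121, 131, 126 and 126 CPM in MCT4-KO and 81.5, 73.1, 74.03 and 74.2 CPM in control libraries. Low oxygen went with a higher level of Thy1 in both genotypes, and the knockout effect was about equal at both levels (0.66 ± 0.061 and 0.74 ± 0.055). Nrp2, a co-receptor for semaphorins and vascular growth factors, had 27.9, 28.4, 26.5 and 25.1 CPM in MCT4-KO and 17.9, 17.7, 16.4 and 18.3 CPM in control libraries at 20% oxygen, and 14.3, 14.8, 14.7 and 13.8 CPM in MCT4-KO and 9.81, 9.63, 8.06 and 9.01 CPM in control libraries at 2%. It was lower at 2% oxygen, yet the genotype difference held its size (0.62 ± 0.055 and 0.66 ± 0.066). Nebl, a nebulin-family gene, rose by 0.66 ± 0.049 at 20% and 0.38 ± 0.045 at 2% oxygen.

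Mpo encodes myeloperoxidase, the enzyme of primary granules, and had 275, 316, 345 and 302 CPM in MCT4-KO and 127, 138, 129.6 and 159 CPM in control libraries at 20% oxygen. At 2% oxygen the gene had 458, 409, 469.8 and 439 CPM in MCT4-KO and 323, 362, 336 and 295 CPM in control libraries. The libraries did not overlap at either level, but the effect was smaller at 2% (0.43 ± 0.072) than at 20% (1.16 ± 0.075, edgeR adjusted p = 6.74e-05 for the difference). Other shared rises of 0.52 to 0.67 were in Pmp22, a myelin protein gene also expressed outside nerve, Oaf, Foxred2, the matricellular protein Ccn3, F13a1, which encodes the A chain of coagulation factor XIII, the tetraspanin Tspan2 and the adhesion receptor Adgrl2. Lipg had 0.54 ± 0.067, but its call at 20% oxygen (edgeR adjusted p = 0.0455) was lost without any 1 of the 8 libraries at 20% or replicate 3 of either genotype at 2% (edgeR adjusted p up to 0.144).

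Whether reads were counted by strand is not given in the sources used here. Exons of Hif1a, Slc25a37, Pik3ip1, Plek, Ptgs1, Emb, Txnip, Hoxa9, Meis1, Mpo, Plod2, Cdkn1a, Bcat1, F13a1, Tspan2, Adgrl2, Serpinb2, Smim14, Ndrg1, Anxa2, Hk3, Itgam, Fn1, Hoxa11, Taf1d, Atf5, Shmt2, Gadd45a, Il3ra, Csf1r, Zfas1 and Snhg12 overlap those of another annotated gene, so their values may hold reads of that gene.

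**Figure D2:**
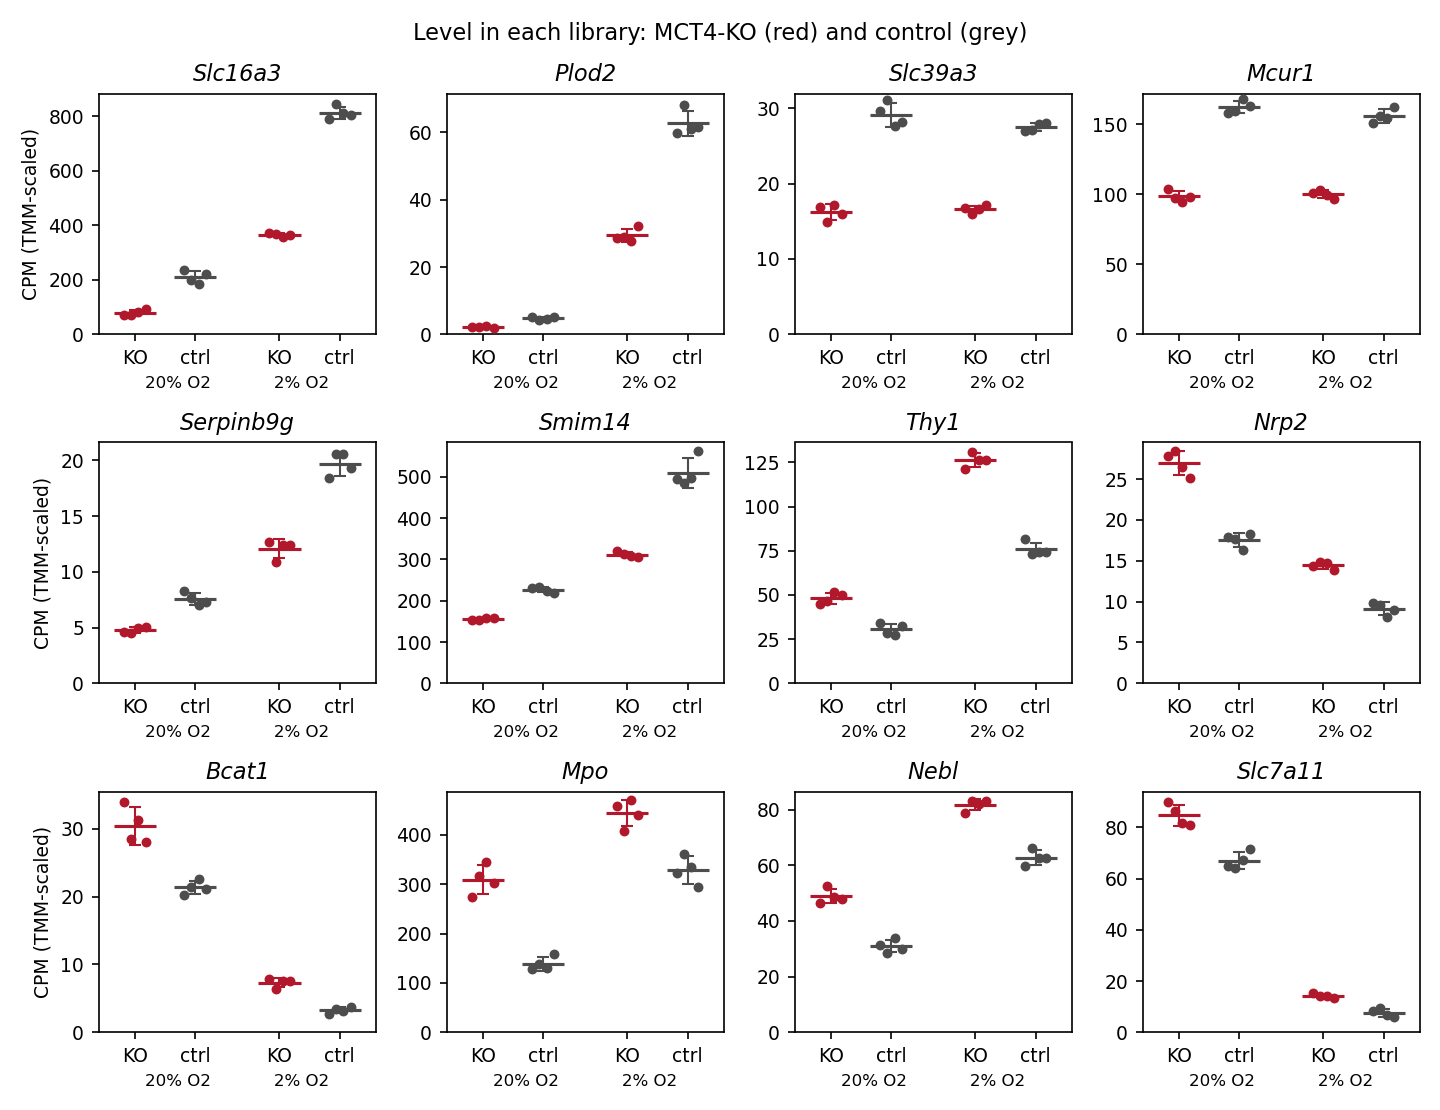
TMM-scaled CPM (vertical axes, from 0) of 12 genes in the 16 libraries, with MCT4-KO in red left of control in grey at each oxygen level; points are libraries, and bars the mean ± 1 SD (n = 4). The first 6 genes are lower and the last 6 higher in MCT4-KO at both levels, whichever way oxygen moved the level.

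An exact two-sided permutation test, which reassigned the genotype labels within each oxygen level in all 4900 ways, was run on 10 genes. For Slc39a3, Bcat1 and Thy1 it gives no information, because they were named for genotypes that do not overlap, which fixes its outcome. Plod2, Mpo and Slc16a3 were of fixed interest but also met that limit, so the same holds for them. The exact permutation p was 0.038 for Slc16a1 and 4.08e-04, the smallest possible, for Txnip, Hoxa9 and Meis1. Adjusted over the 10 genes the latter exact permutation p was 4.53e-04, but these 10 include the genes whose outcome was fixed. The smallest p restates that the genotypes did not overlap at either level. For Slc16a1 the mean effect did not stand for a shared change. The gene encodes MCT1, the other main lactate carrier. Its mean effect was called (0.17 ± 0.028), except with a minimum fold of 1.2 and in an additive model of genotype and oxygen (edgeR adjusted p = 0.0877). The effect was called at 2% oxygen (0.45 ± 0.040), with -0.10 ± 0.038 at 20% (edgeR adjusted p = 0.104, not called). Emb, an accessory protein of such carriers, likewise had 0.36 ± 0.032 at 2% and -0.0010 ± 0.032 at 20%, and Bsg, the chaperone of MCT4, had -0.17 ± 0.044 and -0.020 ± 0.045. Among 15 lactate and proton carriers tested, besides Slc16a3, Slc16a10, a carrier of aromatic amino acids, was shared and higher (0.13 ± 0.024), as was the scaffold gene Slc9a3r1, whose call at 2% was lost when any of control replicates 2 and 3 and MCT4-KO replicates 1 and 2 of that level was left out (edgeR adjusted p up to 0.0844).

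Hypoxia-induced genes outside glycolysis included many that were lower in MCT4-KO. Of 46 tested, 28 were lower and 2 higher in the mean effect, with a median of -0.17 (all genes, -0.0018), and 11 were shared and lower, none shared and higher and 2, Zfp395 and Pfkfb3, called in opposite directions. Plod2 led them. Ndrg1, a stress and differentiation gene, had 47.2, 50.8, 50.2 and 54.3 CPM in MCT4-KO and 58.6, 57.4, 54.3 and 61.4 CPM in control libraries at 20% oxygen. In the libraries at 2% it had 220.4, 213, 212 and 221 CPM in MCT4-KO and 297, 316, 317 and 318 CPM in control libraries. Its genotypes touched at 20% and stood clear of each other at 2%, and the effects were -0.20 ± 0.044 and -0.53 ± 0.039.

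The annexin gene Anxa2 (-0.21 ± 0.024), Ero1l, an oxidase of the endoplasmic reticulum (-0.21 ± 0.029), and the corepressor gene Rcor2 (-0.34 ± 0.053) were also shared and lower. These 5 kept both calls without each library in turn and under the other alternatives except a minimum fold, while the other 6 lost one in at least 1 of them. Ankrd37 (-0.78 ± 0.12) lost its call at 20% when control replicate 1 or MCT4-KO replicate 2 of that level was left out (edgeR adjusted p up to 0.0549), and Narf (-0.30 ± 0.033) without MCT4-KO replicate 2 at 20% (edgeR adjusted p = 0.0575). Stc1, which encodes stanniocalcin and averaged 0.293 ± 0.149 CPM in MCT4-KO and 1.05 ± 0.675 CPM in control libraries at 20% oxygen (SD, n = 4), lost its call there with limma-voom and DESeq2.

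Glycolysis genes gave a mixed picture. Of 19 tested, 8 were lower and 1 higher in the mean effect (median -0.08), and 4 were shared and lower. Among all genes these shares were 15.5%, 16.8% and 2.15%. Pgk1 had 654, 692, 759.6 and 840.3 CPM in MCT4-KO and 1067, 866, 843 and 988 CPM in control libraries at 20% oxygen, and 6066, 5763, 5891 and 5742 CPM in MCT4-KO and 6946, 7107, 7144 and 7779.6 CPM in control libraries at 2%. No MCT4-KO library reached a control of its level (-0.35 ± 0.070 and -0.30 ± 0.070). Pfkl, the liver-type phosphofructokinase, was lower (-0.27 ± 0.034) and Hk3, a hexokinase of myeloid cells, higher at both levels (0.21 ± 0.024). The glucose transporter Slc2a3 and the pyruvate kinase Pkm were the other shared falls, but both lost a call when certain single libraries were left out. Leaving out any of control replicates 1 and 4 and MCT4-KO replicates 1, 2 and 3 at 20% oxygen left 2 shared falls (edgeR adjusted p up to 0.115 for Slc2a3 and 0.156 for Pkm at 20%). Pkm also lost its call at 2% in some of these fits (edgeR adjusted p up to 0.0569). Ldha, the lactate dehydrogenase subunit, had -0.20 ± 0.054 at 20% (edgeR adjusted p = 0.0227) and -0.0090 ± 0.053 at 2% (edgeR adjusted p = 0.915). Txnip, a glucose-responsive arrestin that restrains glucose uptake, had 211, 204, 197 and 203 CPM in MCT4-KO and 263, 254, 268 and 265 CPM in control libraries at 20% oxygen. At 2% it had 195, 203, 202 and 188 CPM in MCT4-KO and 278, 246, 256 and 254 CPM in control libraries. All 8 MCT4-KO libraries lay below all 8 controls, whatever the oxygen level (-0.37 ± 0.038 and -0.39 ± 0.038).

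DNA replication genes were mostly higher in MCT4-KO. All 52 listed were tested, 42 were higher and none lower in the mean effect (median 0.14, with 0.12 at 20% and 0.14 at 2%), and 15 were shared and higher. Mcm4, a subunit of the replicative helicase, had 134, 133, 131 and 127 CPM in MCT4-KO and 109.5, 108, 118 and 116 CPM in control libraries at 20% oxygen. The values at 2% were 181, 184, 189 and 179.8 CPM in MCT4-KO and 148, 152, 146 and 140.3 CPM in control libraries. Every MCT4-KO library exceeded every control of its level, by 0.22 ± 0.035 and 0.32 ± 0.035. The helicase subunits Mcm5 (0.23 ± 0.025) and Mcm6 (0.23 ± 0.023), the methylation maintenance factor Uhrf1 (0.22 ± 0.025), the nucleases Dna2 (0.21 ± 0.026) and Fen1 (0.21 ± 0.032), the licensing factor Cdc6 (0.20 ± 0.026) and the clamp loader subunit Rfc2 (0.15 ± 0.028) kept both calls in the same alternatives. The other 7 did not, and 9 were shared without control replicate 3 or MCT4-KO replicate 2 at 20% oxygen, and 8 without MCT4-KO replicate 3. Among replication-dependent histone genes, whose main RNA lacks a poly(A) tail, 3 of 15 tested were lower and none higher in the mean effect, and their summed level was 37.0 to 40.6 CPM in MCT4-KO and 45.4 to 47.6 CPM in control libraries at 20% oxygen and 60.7 to 61.5 CPM in MCT4-KO and 65.6 to 73.6 CPM in control libraries at 2%. Over all genes tested 16.8% were higher and 15.5% lower in the mean effect, and 2.03% were shared and higher. Of 47 mitosis genes 10 were higher and 2 lower in the mean effect, and none was shared. The higher count was 5 without MCT4-KO replicate 3 at 2% oxygen and 6 without MCT4-KO replicate 2 at 2% or MCT4-KO replicate 1 or 4 at 20%, and 1 was shared and higher without replicate 4 of either genotype at 20%.

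Targets of the MLL fusion were more often lower than higher. Of 31 tested, 18 were lower and 3 higher in the mean effect (median -0.16), and 8 were shared and lower, with 5 without MCT4-KO replicate 2 at 20% oxygen. Among all genes 15.5% were lower and 16.8% higher in the mean effect, and 2.15% were shared and lower. Hoxa9, the homeobox gene that drives these leukemias with Meis1, had 391, 380.2, 375 and 388 CPM in MCT4-KO and 451, 458, 452 and 434 CPM in control libraries at 20% oxygen. At 2% oxygen the gene had 237, 236, 233 and 239.8 CPM in MCT4-KO and 268, 256, 266 and 263 CPM in control libraries. The genotypes did not overlap, and the effects were -0.23 ± 0.028 and -0.15 ± 0.029.

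Meis1 had 104, 101.3, 97.8 and 100.7 CPM in MCT4-KO and 111, 117, 121 and 116 CPM in control libraries at 20% oxygen, and 81.7, 81.5, 83.1 and 83.3 CPM in MCT4-KO and 113, 109.5, 105 and 89.7 CPM in control libraries at 2%. Its lowest control at 2% was replicate 4, the library that stood apart, and still exceeded every MCT4-KO library (-0.20 ± 0.050 and -0.34 ± 0.051). The homeobox genes Hoxa10 (-0.23 ± 0.024) and Hoxa11 (-0.22 ± 0.023) were also shared and lower, while Flt3, a receptor tyrosine kinase of progenitors, was called in opposite directions (0.20 at 20% and -0.31 at 2%).

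Markers of myeloid maturation split. Of 30 monocyte and macrophage markers tested 10 were higher and 6 lower in the mean effect (median 0.06), and 7 were shared and higher, none shared and lower. The shares among all genes tested were 16.8% higher and 15.5% lower in the mean effect, 2.03% shared and higher and 2.15% shared and lower. Mpeg1, a pore-forming protein of macrophages, had 7.74, 8.35, 7.21 and 7.57 CPM in MCT4-KO and 4.76, 4.76, 5.56 and 4.70 CPM in control libraries at 20% oxygen. In the libraries at 2% it had 9.02, 9.01, 9.50 and 9.80 CPM in MCT4-KO and 5.53, 6.17, 5.66 and 5.17 CPM in control libraries, without overlap at either level (0.69 ± 0.054). F13a1 (0.56 ± 0.059), the lysozyme gene Lyz2 (0.36 ± 0.041) and Fn1, for fibronectin (1.44 ± 0.13, at most 3.49 ± 0.184 CPM, SD, n = 4, in any group), kept both calls in the alternatives except the minimum fold, and Csf1r, Cd68 and Ms4a6c did not (4 were shared with no count filter or with DESeq2). The list's summed level overlapped at 20% oxygen (2310 to 2490 CPM in MCT4-KO and 2170 to 2320 CPM in control libraries), and at 2% MCT4-KO lay below control (4110 to 4210 CPM, against 4410 to 4570 CPM). In bulk RNA more cells of a type and more RNA per cell cannot be told apart.

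Of 17 primary granule genes tested 8 were higher and 3 lower in the mean effect. At 20% oxygen 10 were higher and 1 lower (median 0.24), and at 2% 3 were higher and 5 lower (median -0.05). Over all genes tested 4.96% were higher and 4.8% lower at 20%, and 19.4% were higher and 19.1% lower at 2%. Mpo was the one shared and higher, Ctsg, the protease cathepsin G, was shared and lower (-0.16 ± 0.032) but lost its call at 20% without any of control replicates 1 and 2 and MCT4-KO replicates 1, 2 and 3 of that level (edgeR adjusted p up to 0.112), and Prtn3 and Cst7 were called in opposite directions, higher at 20% and lower at 2%. Of 17 secondary granule and neutrophil genes tested the collagenase Mmp8 (1.03 ± 0.10) and Lyz2 were shared and higher, and Padi4 (-0.29 ± 0.031) was shared and lower, as was Itgam, whose call at 20% was lost when control replicate 4, MCT4-KO replicate 3 or MCT4-KO replicate 4 at 20% oxygen was left out (edgeR adjusted p = 0.0734, 0.0726 and 0.0635). Il3ra, the receptor subunit for the IL-3 in the medium, was lower at both levels (-0.22 ± 0.024).

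Several lists were called in the mean effect while few members were shared. For ribosome biogenesis 42 of 58 genes were higher and 3 lower in the mean effect (all genes, 16.8% and 15.5%). None was higher at 20% oxygen (all genes, 4.96%), and the medians were -0.06 at 20% and 0.32 at 2%. The single shared gene, Taf1d, a subunit of the RNA polymerase I initiation factor, was lower (-0.31 ± 0.031). Oxygen dependence was called for 50 of the 58. Cytosolic ribosomal protein genes were lower in 72 of 79 in the mean effect and higher in 1, and the mean effect was negative in 77. Their median was -0.07 at 20% and -0.23 at 2%, the same sign at both levels, and oxygen dependence was called for 29 of the 79. At 20% few single genes were called, 4 of them lower (all genes, 4.8%), and 4 were shared. That count was 14 without control replicate 4 at 20% oxygen, 9 without control replicate 4 at 2% and 1 to 3 without any other library, and these genes have many processed copies that can share reads. Myc, an activator of ribosome biogenesis, had 0.010 ± 0.045 at 20% (not called) and 0.43 ± 0.046 at 2% oxygen.

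Atf4 targets, the amino acid response, had 27 of 46 higher and 5 lower in the mean effect (all genes, 16.8% and 15.5%). Shared were Bcat1, Slc7a11, Shmt2 and Psat1, which were higher, and Atf5, Atf3 and Ddit4, which were lower. Shmt2, the mitochondrial serine hydroxymethyltransferase, had 405, 395, 419.6 and 402 CPM in MCT4-KO and 319, 339.9, 347 and 368 CPM in control libraries at 20% oxygen, and 319, 300.1, 319 and 305 CPM in MCT4-KO and 239, 265, 245 and 250.1 CPM in control libraries at 2%. The genotypes did not overlap (0.28 ± 0.029). Atf5 and Atf3 encode transcription factors of the same stress response and had -0.39 ± 0.041 and -0.37 ± 0.062. Psat1 lost its call at 20% without MCT4-KO replicate 3 at 20% oxygen (edgeR adjusted p = 0.0663), and Ddit4 lost its call at 2% when control replicate 4, MCT4-KO replicate 2 or MCT4-KO replicate 3 of that level was left out (edgeR adjusted p = 0.0889, 0.0732 and 0.0595).

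Serine, glycine and one-carbon genes (17 of 24 higher and 1 lower in the mean effect, 3 shared and higher) and purine and pyrimidine synthesis genes (16 of 27 higher and 2 lower, 2 shared and higher) had no member shared and lower. For these and the lists that follow, the shares among all genes were 16.8% higher and 15.5% lower in the mean effect. Among all genes 2.03% were shared and higher and 2.15% shared and lower. Besides Shmt2 the phosphoribosyl pyrophosphate synthetase Prps2 was shared (0.22 ± 0.026). The isocitrate dehydrogenase Idh2 (0.26 ± 0.028) was the single shared member of 33 genes of the TCA cycle and pyruvate entry tested, near the share of all genes (4.18%). Of 59 nuclear-encoded respiratory chain genes 3 were higher and 3 lower in the mean effect, a smaller share each way than among all genes, and none was shared. The higher count was 10 without control replicate 4 at 2% oxygen and 6 without control replicate 2 at 20%, the lower count was 5 without MCT4-KO replicate 3 at 20%, and 1 was shared and higher without MCT4-KO replicate 1 and 1 shared and lower without control replicate 4 at 20%. Of 37 p53 targets 12 were higher and 3 lower in the mean effect. Among them Gadd45a, which acts in growth arrest after DNA damage, was lower at both levels (-0.52 ± 0.036) and Zmat3 higher (0.46 ± 0.056), and neither Cdkn1a (0.070 ± 0.032, edgeR adjusted p = 0.108) nor Mdm2 (0.0070 ± 0.028, edgeR adjusted p = 0.874) was called. Cdkn1a was called with library size scaling (edgeR adjusted p = 0.0218) and without control replicate 2 or 4 at 2% oxygen (edgeR adjusted p = 0.0498 and 0.0468).

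**Figure D3:**
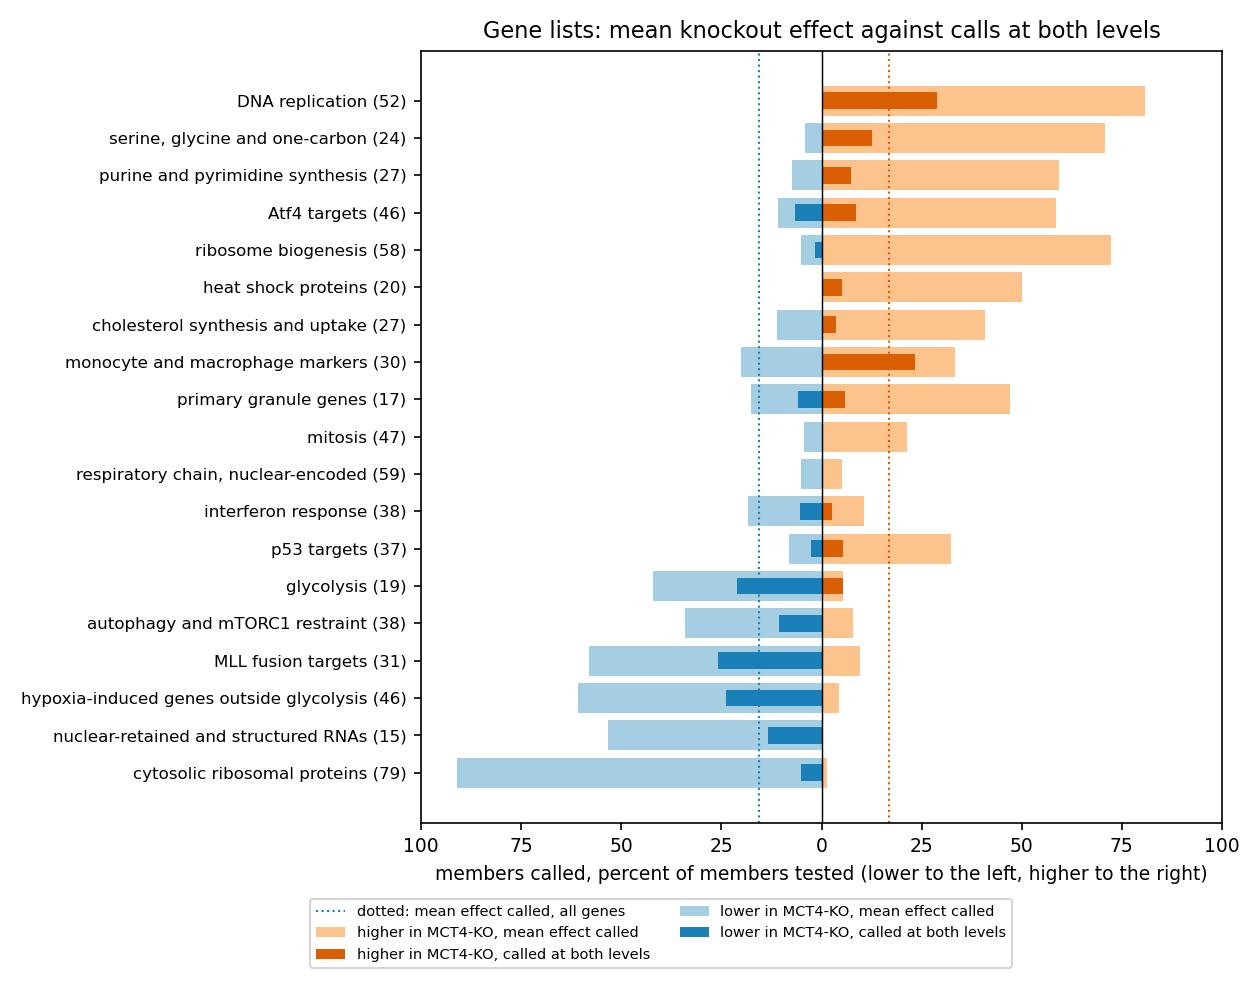
Percent of the tested members of 19 gene lists (number tested in brackets) that were higher (to the right) or lower (to the left) in MCT4-KO: wide pale bars are members called in the mean effect, narrow dark bars those called at both oxygen levels, and dotted lines the percent of all genes called in the mean effect (16.8% and 15.5%). DNA replication, monocyte markers, MLL targets and hypoxia genes keep dark bars, while ribosome biogenesis and ribosomal proteins have almost none.

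Library-wide quantities differed between genotypes in some sums and overlapped in others. Of 15 nuclear-retained and structured RNAs, 8 were lower and none higher in the mean effect (all genes, 15.5% and 16.8%), with Zfas1 (-0.46 ± 0.037) and Snhg12 (-0.41 ± 0.046), hosts of small nucleolar RNAs, shared and lower (4 were shared without control replicate 2 or 4 at 2% oxygen). Their summed level was 1270 to 1330 CPM in MCT4-KO and 1400 to 1570 CPM in control libraries at 20% oxygen, and 417 to 438 CPM in MCT4-KO and 435 to 511 CPM in control libraries at 2%. Of 15 mitochondrially encoded genes 4 were higher in the mean effect (9 without control replicate 3 at 20% oxygen) and none was shared, with 1 higher at 20% (median -0.039) and 9 higher at 2% (median 0.42). At 20% oxygen their summed level was 6450 to 8010 CPM in MCT4-KO and 6050 to 9840 CPM in control libraries. At 2% it was 3300 to 4130 CPM in MCT4-KO and 2410 to 3380 CPM in control libraries. Summed immediate early genes were 1230 to 1310 CPM in MCT4-KO and 1300 to 1320 CPM in control libraries at 20% oxygen. At 2% they were 904 to 937 CPM in MCT4-KO and 777 to 850 CPM in control libraries. Of the other cell types' markers, the erythroid cofactor gene Zfpm1 (0.37 ± 0.048) and the mast cell enzyme Hdc (0.33 ± 0.037) were shared and higher. The median mean effect was -0.11 over 11 erythroid and megakaryocyte, -0.24 over 3 lymphoid, 0.24 over 5 mast cell and -0.11 over 4 stromal markers tested, and 3 of the 4 stromal markers were lower. Summed lymphoid markers were 69.9 to 72.7 CPM in MCT4-KO and 70.1 to 77.8 CPM in control libraries at 20% oxygen, and 28.6 to 31.1 CPM in MCT4-KO and 32.8 to 35.8 CPM in control libraries at 2%. The summed erythroid and megakaryocyte markers were 30.4 to 34.5 CPM in MCT4-KO and 26.3 to 27.4 CPM in control libraries at 20% oxygen, and 69.2 to 70.7 CPM in MCT4-KO and 67.5 to 71.2 CPM in control libraries at 2%. The part of these shifts in the results above was not tested.

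Genes of chromosome 12 tended to lower levels in MCT4-KO. Of 523 tested, 187 were lower and 22 higher in the mean effect, and 42 were shared and lower, 8.03% of the chromosome's genes, against 0.61% to 3.39% on the other chromosomes, while 4 were shared and higher. The median effect of its genes was -0.11 at 20% and -0.09 at 2% oxygen, and 76.1% of them had a negative mean effect. All 12 stretches of 10 Mb along the chromosome had a negative median of the mean effect (-0.236 to -0.016).

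The shift was seen in each library. Relative to the control mean of their oxygen level, the 337 chromosome 12 genes whose average log2 CPM reached 3 had a median of -0.100 to -0.082 in MCT4-KO and -0.008 to 0.009 in control libraries at 20% oxygen, and of -0.080 to -0.073 in MCT4-KO and -0.006 to 0.007 in control libraries at 2%. All 523 tested genes of the chromosome took 4.03 ± 0.0295% of the counts in MCT4-KO and 4.35 ± 0.0257% in control libraries at 20% oxygen, and 3.77 ± 0.0116% in MCT4-KO and 3.87 ± 0.0199% in control libraries at 2% (SD, n = 4). DNA copy number was not measured, so its part in this shift was not tested. Without chromosome 12, a choice made after seeing the data, 276 genes were shared and higher and 254 shared and lower. Chga lies on this chromosome. Around Slc16a3 itself, of 57 genes tested within 1 Mb on chromosome 11, 4 were higher and 10 lower in the mean effect (median -0.06). Of these 57, 1 was shared and higher and 2 shared and lower. Over all genes tested 16.8% were higher and 15.5% lower in the mean effect, and 2.03% were shared and higher and 2.15% shared and lower.

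**Figure D4:**
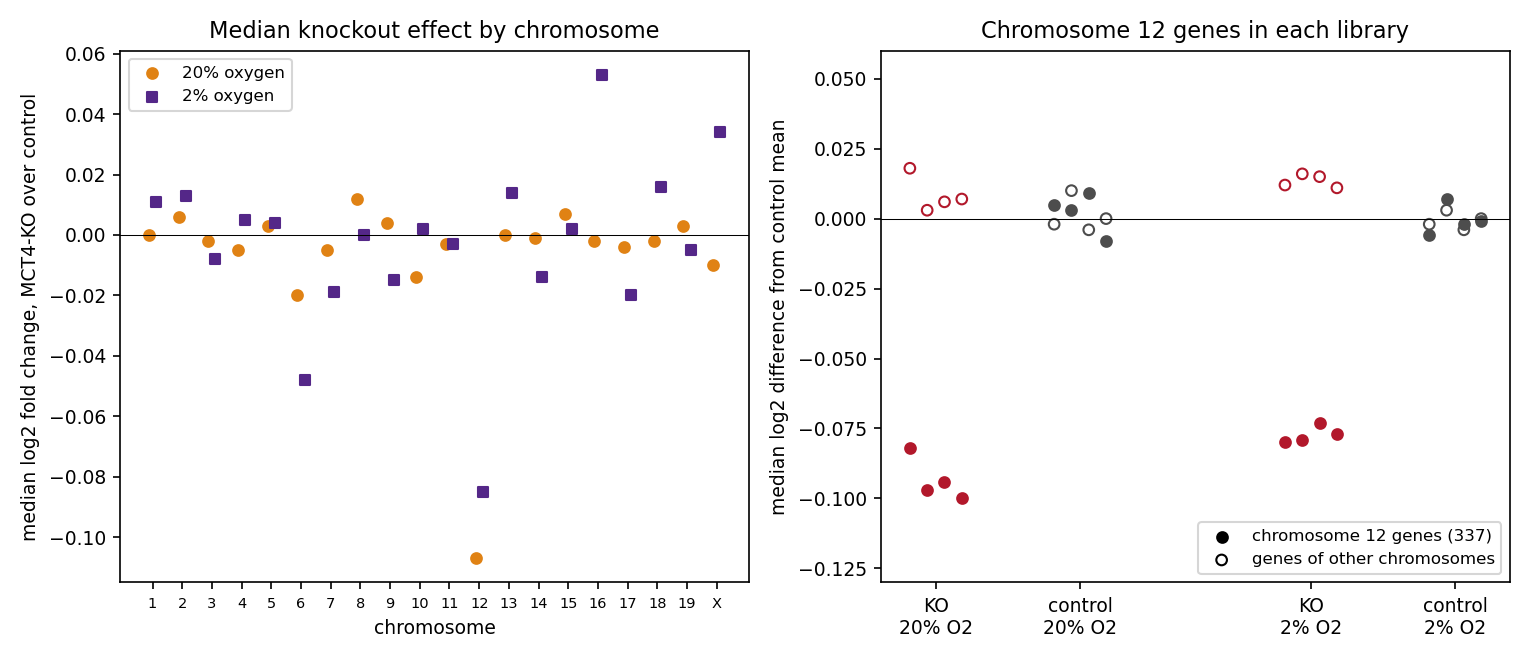
Left, median log2 fold change of MCT4-KO over control per chromosome at 20% (circles) and 2% oxygen (squares). Right, median log2 difference from the control mean of the same oxygen level in each library (genes whose average log2 CPM reached 3), for chromosome 12 genes (filled) and genes of other chromosomes (open), MCT4-KO in red left of control in grey; the 8 MCT4-KO libraries lie between -0.100 and -0.073 for chromosome 12.

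The mean effect hid changes that ran in opposite directions. Of the 4442 genes called in it, 804 (18.1%) had effects of opposite sign at the 2 oxygen levels, and 446 were called at neither level alone. Of the 171 genes called at both levels in opposite directions, 103 were higher at 20% and lower at 2% oxygen and 68 the reverse. Igsf6, a membrane protein of the immunoglobulin superfamily, averaged 8.41 ± 0.452 CPM in MCT4-KO and 5.29 ± 0.402 CPM in control libraries at 20% oxygen, and 9.75 ± 0.833 CPM in MCT4-KO and 13.6 ± 0.878 CPM in control libraries at 2% (SD, n = 4), so its mean effect of 0.090 ± 0.053 was not called (edgeR adjusted p = 0.211). Xpc, a DNA damage sensor (0.12 ± 0.036 at 20% and -0.41 ± 0.036 at 2%), Trim45 (0.21 ± 0.050 and -0.49 ± 0.048) and the tyrosine kinase gene Fes (0.15 ± 0.035 and -0.33 ± 0.034) were also higher at 20% and lower at 2%. Their mean effects were called lower, but not with a minimum fold of 1.2 or in the additive model (edgeR adjusted p = 0.118, 0.213 and 0.275).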

How the data were processed

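Poly(A) RNA of 16 libraries was sequenced, 4 for each of MCT4-KO at 20%, control at 20%, MCT4-KO at 2% and control at 2% oxygen. The authors deposited 1 table of estimated counts per gene (53801 genes). The submitters' processing notes name HISAT2, RSEM and the mm10 build, but no source used here gives their versions, the annotation or the strand setting. Of the deposited estimated counts 10.1% were not whole, and all were rounded. Names and positions came from GENCODE vM21 (GRCm38), which matched 53706 IDs; the other 95 held 0.0103% of counts.

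Genes with enough counts (filterByExpr; 13774, 99.94% of counts) were scaled by TMM and fitted with edgeR 4.0.16 (limma 3.58.1, R 4.3.3) in 1 quasi-likelihood model of 4 group means with 12 residual degrees of freedom. Contrasts were the effect at 20%, at 2%, their mean and their difference, with Benjamini-Hochberg adjustment over all genes. A count of 0 allows up to 3 counts, on average 0.124 CPM, which covers counting error only. The permutation test used log2(CPM + 1). On simulated data for 13774 genes with 50 changed genes per fold, the mean effect was called for 86% at 1.2-fold and 98% at 1.5-fold, and both levels were called for 60% and 90%. The changed genes were drawn from genes with a mean of over 50 counts, so these shares do not cover genes with fewer counts. Genes named are those with fixed interest (such as Slc16a3 and Hoxa9), the 14 largest shared rises and falls without overlap (average log2 CPM from 3 up), up to 4 members per list called at both levels by adjusted p, and genes called in opposite directions or differing most in size between the levels. The members and gene lists were chosen with earlier results of these data known. Alternatives covered scaling, count filters, DESeq2 1.42.0, limma-voom, a replicate block, an additive model, each level fitted alone, a minimum fold and each library left out.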

Additional observations from a re-analysis of the deposited data

Results flagged for a closer look

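In 5 of 84 groups of 4 libraries tested for a value far from the other 3, one was found, which chance gives in about 1 in 20 groups. Serpinb9g was lowest at 10.9 CPM in 1 MCT4-KO library at 2% oxygen, and in control libraries Smim14 was highest at 562 CPM and Thy1 at 81.5 CPM at 2%, Mpeg1 was highest at 5.56 CPM at 20%, and Ndrg1 was lowest at 297 CPM at 2%.

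The knockout effect of 45 named genes differed between the oxygen levels by edgeR's test of that difference, and the values below are the effect at 2% minus that at 20% oxygen on the log2 scale. For genes whose change was not shared they were Slc16a1 (0.55), Emb (0.36), Hif1a (0.21), Myc (0.42) and Mdm2 (-0.18). For genes called in opposite directions they were Pik3ip1 (-0.94), Igsf6 (-1.15), Xpc (-0.53), Trim45 (-0.70) and Fes (-0.49).

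Among genes higher in MCT4-KO at both levels, the rise was larger at 2% oxygen for Bcat1 (0.66), Foxred2 (0.41), Slc7a11 (0.57), Mcm6 (0.13), Mcm3 (0.18), Mcm5 (0.15), Pspc1 (0.52) and Plek (0.42). It was larger at 20% for Mpo (-0.73), Pmp22 (-0.39), F13a1 (-0.61), Nebl (-0.28), Hk3 (-0.16), Tns1 (-0.58) and Ptgs1 (-0.54). Among genes lower at both levels, the fall was larger at 2% for Fgfbp3 (-0.54), Smim14 (-0.17), Pafah1b3 (-0.36), Ndrg1 (-0.33), Narf (-0.22), Itgam (-0.17), H2-Ab1 (-0.36), Cdkn1b (-0.39), Hoxa11 (-0.16), Rps7 (-0.27), Atf5 (-0.24), Gadd45a (-0.37), Itgb7 (-0.15), Slc25a37 (-0.21), Zfas1 (-0.29), Sat1 (-0.58), Prkcz (-0.54) and Ypel3 (-0.57), and larger at 20% for Proser2 (0.92) and Aplp1 (0.52). Of these genes Narf, Mcm3, Itgam, H2-Ab1, Cdkn1b, Rps7, Slc25a37, Plek, Prkcz and Ypel3 lost a call at 1 level or both without at least 1 single library. Few counts stand behind Proser2 and Aplp1 at 20% oxygen. Proser2 had 0.588 to 1.08 CPM in MCT4-KO and 2.27 to 2.39 CPM in control libraries there. Aplp1 had 1.08 to 1.39 CPM in MCT4-KO and 2.05 to 2.88 CPM in control libraries.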

How the results depend on the processing

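With TMM scaling and edgeR, 2313 genes were higher and 2129 lower in the mean effect, and 280 were higher, 296 lower and 171 opposite at both levels. These counts and the 3155 genes with oxygen dependence stayed within 1.5 times under DESeq2 size factors, both other count filters, limma-voom and DESeq2's Wald test. Requiring more than a 1.2-fold change left 76 higher and 108 lower in the mean effect, 25 higher, 20 lower and 1 opposite at both levels, and 289 with oxygen dependence. Leaving out 1 library at a time gave 2076 to 2380 higher and 1906 to 2184 lower in the mean effect, 185 to 297 higher, 191 to 334 lower and 96 to 241 opposite at both levels, and 2648 to 3356 with oxygen dependence. The uncalled effect of Mdm2 ran from -0.00978 (without control replicate 3) to 0.0205 over single libraries left out, and was -0.000439 without MCT4-KO replicate 2, these replicates being of 20% oxygen. Of 109 named genes called at both levels, 71 kept both calls without each library in turn and under the other alternatives except the minimum fold, and 21 kept them with it.

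Libraries with the same replicate number did not as a rule deviate together (correlations of -0.368 to 0.307 over 24 pairs, 4 of them over 0.1). Pairs with different numbers in different groups ran from -0.335 to 0.451. The highest was MCT4-KO replicate 1 with control replicate 3 at 20% oxygen. A replicate block does not take up such common deviations. With a replicate block the counts were 2133 higher and 1961 lower in the mean effect, 209 higher, 235 lower and 125 opposite at both levels, and 2781 with oxygen dependence. Depth limits genes near 1 CPM, where few counts stand behind a value.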

Other observations

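Genes with low counts held the largest shared changes. All 15 shared genes that were higher by at least 2-fold had an average log2 CPM under 3, as did 5 of the 9 that were lower by at least 2-fold. The genes named here were chosen after their values were seen. Eya4, a transcriptional coactivator and phosphatase, averaged 5.72 CPM in MCT4-KO and 1.83 CPM in control libraries at 20% oxygen, and 3.89 CPM in MCT4-KO and 1.27 CPM in control libraries at 2% (mean effect 1.63 ± 0.089). Sobp averaged 3.03 CPM in MCT4-KO and 1.31 CPM in control libraries at 20%, and 5.18 CPM in MCT4-KO and 2.08 CPM in control libraries at 2% (1.26 ± 0.096). The ephrin receptor Epha3 (1.53 ± 0.19), the neural adhesion protein gene Cntn1 (1.32 ± 0.17), the adaptor Grb10 (1.07 ± 0.094) and the potassium channel Kcnn4 (1.02 ± 0.097) were also higher at both levels. Tjp1, a tight junction scaffold, averaged 1.10 CPM in MCT4-KO and 2.57 CPM in control libraries at 20%, and 3.87 CPM in MCT4-KO and 6.73 CPM in control libraries at 2% (-1.005 ± 0.13). These 7 genes kept both calls when each library was left out.

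Genes called in opposite directions included members of several lists. The nuclear RNA Neat1 had -0.65 at 20% and 0.40 at 2% oxygen, and the Nrf2 targets Nqo1 (-0.55 and 0.38) and Hmox1 (-0.27 and 0.27) had the same order of signs.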
